A study of Mus musculus with 18 samples.

Results

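The genes described here belong to the hypoxia-inducible factor (HIF) pathway: the subunit gene Hif1a, the oxygen sensor genes Egln1 and Egln3, the secreted factor genes Vegfa and Adm, and the target genes Ndrg1, Ankrd37, Bnip3 and P4ha1. They were picked by gene symbol, 9 of the 24411 symbols measured, and all 9 passed the filter on low values (1 TPM or more in at least 3 libraries). The measurements come from mouse RAW264.7 macrophage-like cells, from which CRISPR/Cas9 was used to derive a line deficient in Kdm7a, a histone demethylase gene. Poly(A) RNA was sequenced from 18 libraries, 3 in each of 6 groups. The KO M1 and control M1 groups received 2 ng/ml mouse IFN-γ with 0.1 µg/ml LPS. The KO M2 and control M2 groups received mouse IL-13, IL-10 and IL-4, each at 20 ng/ml, with 2 ng/ml human TGF-β1. The KO M0 and control M0 groups were left unstimulated, and all cells were harvested at 48 h. Control cells carried a control guide RNA. Since 1 KO line and 1 control line are named, a difference between these lines that does not come from Kdm7a cannot be told apart from an effect of the KO. No oxygen level is given in the labels.

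HIF is a dimer of an oxygen-regulated alpha subunit, such as the product of Hif1a, and the constant partner encoded by Arnt. In oxygenated cells the prolyl hydroxylases encoded by the Egln genes mark the alpha subunit, and the von Hippel-Lindau protein (Vhl) then directs it to degradation. Where the alpha subunit persists, the dimer binds a short core sequence near target genes for blood vessel growth, glycolysis and mitochondrial turnover, and macrophages given LPS are known to raise Hif1a RNA through NF-kappaB signalling. Because HIF is set largely at the protein level, RNA of Hif1a does not measure HIF activity.

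The values are TPM, a length-scaled share of the transcripts in each library, so levels can be set beside each other between genes. As shares of a fixed total they do not separate a gene's own change from changes elsewhere in the library, and in bulk samples fewer expressing cells and less RNA per cell cannot be told apart. Library depth is unknown from TPM. The libraries held 10316 to 10884 genes at 1 TPM or more. Kdm7a averaged 3.37 ± 0.14 TPM in KO M0 and 11.1 ± 0.17 TPM in control M0 cells, 7.49 ± 0.26 TPM in KO M1 and 29.7 ± 0.85 TPM in control M1 cells, and 6.80 ± 0.88 TPM in KO M2 and 23.3 ± 1.13 TPM in control M2 cells (SD, n = 3 each). Of 9 macrophage markers, 8 averaged 1 TPM or more in every group. Their summed level was lower in KO than in control libraries: 5551 to 5607 TPM against 6753 to 6840 TPM at M0, 3055 to 3180 against 3967 to 4120 TPM under M1, and 4704 to 4823 against 5567 to 5740 TPM under M2. Lyz2, a lysozyme gene, had the largest difference in TPM of these markers in each condition. It averaged 2482 TPM in KO and 3631 TPM in control cells at M0, 845 against 1255 TPM under M1, and 1034 against 1981 TPM under M2. Csf1r, the macrophage growth factor receptor, went the other way, at 571 TPM in KO and 443 TPM in control cells at M0, 50.7 against 32.9 TPM under M1 and 784 against 686 TPM under M2. Under M2 the means of Cd68, Itgam, Spi1 and Fcgr1 were also slightly higher in KO cells. They stood at 932 against 883, 157 against 150, 483 against 478 and 29.2 against 27.7 TPM. Adgre1 and Tyrobp, like Lyz2, averaged lower in KO cells there, so the sum does not stand for each marker. The part of these differences in the results on genotype was not tested. The fibroblast, epithelial and T cell marker lists summed to at most 3.37, 1.2 and 0.28 TPM in any library, each with 0 of 5 genes averaging 1 TPM. The B cell list had 1 of 5 genes at that level in every group, Cd79a, and the endothelial list 1 of 5, Pecam1, in KO M1, control M1 and KO M2 cells.

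Promoter windows of the members were looked up to describe where the letters of the HIF core occur in them. Windows from 250 bases before to 50 after a start listed in a RefSeq promoter table (GRCm38.p6) were found for 8 of the 9 members, 9 windows in all. In 5 of them the listed start is the outermost start of the gene (Adm, Bnip3, Egln1, Egln3 and a Vegfa window). The other 4 starts lie inside the gene, by 99 bases in P4ha1, 564 in Ankrd37, 6543 in Hif1a and 7214 in the other Vegfa window. They were searched on both strands for the HIF core written as ACGTG or GCGTG. A core was found in 4 of the 5 windows at an outermost start and in all 4 windows inside a gene, and 7 of the 9 held 2 or more, while 43.8% of all 32851 windows in the table held at least 1 and 20.6% held 2 or more. A match is only a description of the letters. The Vegfa window at the outermost start held no core and the one inside the gene held 2, which says nothing of HIF binding elsewhere in the locus. The 250 bases before the listed start of 4 members are printed here, the gene for the HIF subunit and 3 targets with different behaviour in the results, reading towards the gene with each core in capitals (CACGC and CACGT are the cores on the other strand).
Hif1a, chr12:73907617-73907866, plus strand: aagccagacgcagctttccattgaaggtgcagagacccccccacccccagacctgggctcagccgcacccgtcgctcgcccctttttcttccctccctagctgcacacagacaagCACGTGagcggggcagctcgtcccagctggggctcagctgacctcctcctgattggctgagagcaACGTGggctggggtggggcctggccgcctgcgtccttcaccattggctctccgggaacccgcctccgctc
Egln3, chr12:54203875-54204124, minus strand: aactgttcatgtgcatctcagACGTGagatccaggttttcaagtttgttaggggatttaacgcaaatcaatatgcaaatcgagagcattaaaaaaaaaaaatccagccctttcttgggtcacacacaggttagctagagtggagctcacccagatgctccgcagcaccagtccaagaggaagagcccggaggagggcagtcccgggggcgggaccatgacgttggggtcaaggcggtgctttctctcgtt
Adm, chr7:110627407-110627656, plus strand: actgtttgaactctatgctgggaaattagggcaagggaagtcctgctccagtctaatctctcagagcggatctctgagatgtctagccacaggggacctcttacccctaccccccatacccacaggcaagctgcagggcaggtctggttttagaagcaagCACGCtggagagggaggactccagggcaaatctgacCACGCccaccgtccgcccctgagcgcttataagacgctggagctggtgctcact
Bnip3, chr7:138909507-138909756, minus strand: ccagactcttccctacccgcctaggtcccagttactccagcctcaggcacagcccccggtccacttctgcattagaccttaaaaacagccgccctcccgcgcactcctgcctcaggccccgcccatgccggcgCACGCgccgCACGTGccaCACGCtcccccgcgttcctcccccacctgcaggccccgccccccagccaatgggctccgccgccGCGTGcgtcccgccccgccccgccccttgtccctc
The Bnip3 window held 5 cores, between 117 and 35 bases upstream of the listed start, and the Adm window 2, at 90 and 54 bases. Egln3 had 1 core, 229 bases upstream. In Hif1a 2 of the 3 cores, and in Bnip3 2 of the 5, are the paired strands of the palindrome CACGTG, which is also the E-box bound by other factors and which 7.15% of all windows held.

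Hif1a was higher in KO than in control cells in each condition, and M1 stimulation raised it in both genotypes. The gene lies at chr12:73901324-73947554. Under M1 it measured 229.1, 243.2 and 228.8 TPM in KO libraries, against 170.7, 171.9 and 165.0 TPM in control libraries. Under M2 it measured 96.3, 106.1 and 109.0 TPM in KO libraries, against 87.3, 83.1 and 88.5 TPM in control libraries. Unstimulated, it measured 76.3, 76.6 and 79.2 TPM in KO libraries, against 68.0, 69.1 and 74.1 TPM in control libraries. All KO libraries stood above all control libraries of their condition, and the 6 groups did not overlap in the order control M0, KO M0, control M2, KO M2, control M1, KO M1. The log2 fold change of KO over control was 0.46 ± 0.045 under M1 (limma adjusted p = 5.26e-08), 0.26 ± 0.045 under M2 (adjusted p = 1.59e-04) and 0.14 ± 0.044 at M0 (adjusted p = 0.0386); log2 fold changes here are on the log2(TPM + 1) scale with standard errors. The M0 call ended when any 1 of the 6 unstimulated libraries other than control M0 library 3 was left out, with limma adjusted p between 0.0630 and 0.141. With all libraries it also ended without a mean-variance trend (limma adjusted p = 0.0672) or without a filter (adjusted p = 0.0626). M1 raised Hif1a by 1.58 on the log2 scale in KO cells and by 1.25 in control cells, and the response was larger in KO cells by 0.33 ± 0.063 (limma adjusted p = 4.40e-04).

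**Figure D1:**
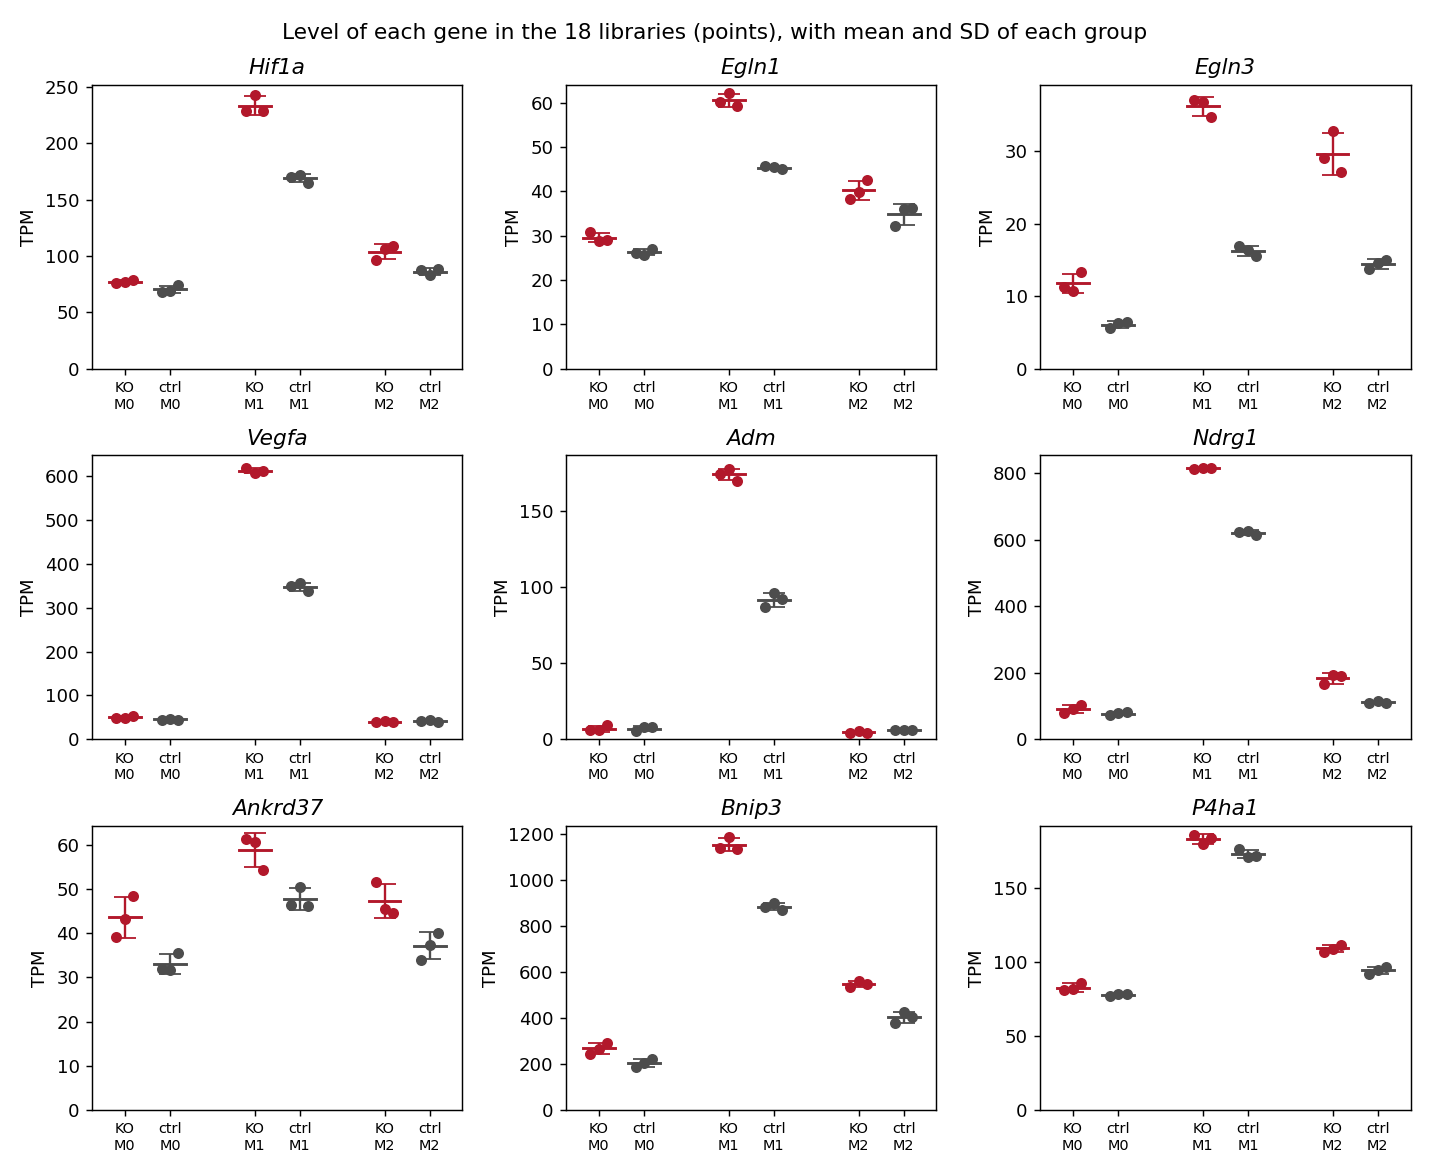
TPM of each of the 9 genes (vertical axis, from 0, scaled per gene) in the 6 groups, with KO left of control ("ctrl") in each condition; points are libraries, horizontal lines means and bars SD (n = 3). KO M1 holds the highest mean for all 9 genes, and Vegfa and Adm are far higher in both M1 groups than in the other 4.

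Arnt, the partner subunit, was also higher in KO cells under M1. It measured 60.9, 57.5 and 60.8 TPM in KO M1 libraries, against 51.1, 50.0 and 50.5 TPM in control M1 libraries (log2 fold change 0.24 ± 0.045, limma adjusted p = 2.09e-04), and the groups did not overlap. At M0 and under M2 the KO difference in Arnt was 0.07 and 0.09 on the log2 scale and was not called (limma adjusted p = 0.292 and 0.154). The other alpha and beta subunit genes were low. Epas1, which encodes HIF-2 alpha, reached 1.58 TPM in 1 library and lay under 1 TPM in the others, Arnt2 reached at most 0.87 TPM and Hif3a at most 0.35 TPM. None of these 3 was tested.

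The oxygen sensor gene Egln3, whose prolyl hydroxylase product limits HIF and which is itself a HIF target, had the largest KO to control ratio of the 9 members in every condition. It lies at chr12:54178981-54203874. It measured 37.1, 36.8 and 34.6 TPM in KO M1 libraries, against 16.9, 16.4 and 15.6 TPM in control M1 libraries. It measured 29.0, 32.7 and 27.1 TPM in KO M2 libraries, against 13.7, 14.6 and 14.97 TPM in control M2 libraries. It measured 11.3, 10.8 and 13.3 TPM in KO M0 libraries, against 5.55, 6.34 and 6.39 TPM in control M0 libraries. KO libraries were well above control libraries each time, at mean ratios of 2.22, 2.05 and 1.93, and no 2 neighbouring groups overlapped. The limma log2 fold changes were 1.10 ± 0.075 under M1 (adjusted p = 4.37e-10), 0.99 ± 0.075 under M2 (adjusted p = 5.74e-09) and 0.85 ± 0.075 at M0 (adjusted p = 7.03e-08). Egln3 rose under both stimuli, by 1.54 in KO and 1.29 in control cells under M1 and by 1.26 in KO and 1.12 in control cells under M2. It was the 1 member whose mean was higher in KO M2 than in control M1 cells. The M1 response of Egln3 did not pass the test of a difference between genotypes (0.26, limma adjusted p = 0.0654), but did after TMM scaling (0.34, adjusted p = 0.0176).

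Egln1, which encodes the main HIF prolyl hydroxylase, moved less. It lies at chr8:124908587-124949254. It measured 60.1, 62.2 and 59.4 TPM in KO M1 libraries, against 45.7, 45.5 and 45.0 TPM in control M1 libraries. It measured 38.4, 39.9 and 42.6 TPM in KO M2 libraries, against 32.2, 36.0 and 36.3 TPM in control M2 libraries. Unstimulated, it measured 30.9, 28.9 and 29.0 TPM in KO libraries and 26.1, 25.7 and 27.1 TPM in control libraries. KO libraries were above control libraries in all 3 conditions with no overlap. The limma log2 fold changes were 0.41 ± 0.049 under M1 (adjusted p = 9.32e-07), 0.20 ± 0.049 under M2 (adjusted p = 0.00324) and 0.16 ± 0.049 at M0 (adjusted p = 0.0212). The M0 call was lost when any 1 of control M0 libraries 1 and 2 or KO M0 library 1 was left out. The response to M1 was larger in KO cells, 1.01 against 0.77 in control cells, a difference of 0.24 ± 0.069 (limma adjusted p = 0.00935, but 0.0567 without the third library of both unstimulated groups).

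Of 10 listed genes for oxygen sensing and HIF degradation, which include the members Egln1 and Egln3, 9 were tested. Counting these members, the KO raised 4 and lowered 0 under M1, raised 2 and lowered 1 under M2, and raised 2 and lowered 0 at M0. Over all genes tested with limma, 16.9%, 12.7% and 8.86% were called higher in KO cells under M1, under M2 and at M0. The shares called lower were 33.4%, 18.3% and 10.3%, and the same shares apply to the list counts below. Vhl, the von Hippel-Lindau gene, stood at 141.3, 142.7 and 135.7 TPM in KO M1 libraries, against 96.3, 97.5 and 101.1 TPM in control M1 libraries (log2 fold change 0.50 ± 0.045, limma adjusted p = 1.77e-08). Its M1 response was larger in KO cells by 0.46 ± 0.063 (limma adjusted p = 1.58e-05). The gene lowered under M2 was Tceb2, which encodes elongin B of the Vhl complex, at 434 ± 15.6 TPM in KO M2 and 469 ± 22.4 TPM in control M2 cells. Hif1an, the asparagine hydroxylase of HIF, and Egln2 passed no test of genotype.

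Vegfa, the blood vessel growth factor, and Adm, the vasodilator peptide adrenomedullin, were, with Ndrg1, the members most raised by M1, and both were higher in KO than in control cells there. Vegfa lies at chr17:46016993-46032377. It measured 617.9, 606.2 and 611.5 TPM in KO M1 libraries, against 349.1, 355.7 and 338.0 TPM in control M1 libraries. It measured 38.5, 41.4 and 39.0 TPM in KO M2 libraries, against 42.3, 44.6 and 39.8 TPM in control M2 libraries. Unstimulated, it measured 48.5, 49.4 and 54.2 TPM in KO libraries and 44.9, 45.4 and 45.0 TPM in control libraries. The M1 groups were far apart, the M0 groups were apart by a small margin, and the M2 groups overlapped. KO over control was 0.81 ± 0.044 under M1 (limma adjusted p = 1.35e-11), 0.16 ± 0.044 at M0 (adjusted p = 0.0120) and -0.09 ± 0.044 under M2 (adjusted p = 0.133, or 0.0401 without control M2 library 3). The M0 call was lost without KO M0 library 3 (limma adjusted p = 0.0895). Against M0, Vegfa under M1 was 12.1 times as high in KO cells and 7.70 times in control cells.

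The genotype difference in the Vegfa response was 0.65 ± 0.062 for M1 (limma adjusted p = 1.47e-07). For M2 it had the other sign, -0.25 ± 0.062 (limma adjusted p = 0.00930, and 0.0542 without the third library of both unstimulated groups). M2 lowered Vegfa by 0.35 in KO cells, while its value in control cells, -0.09, was not called (limma adjusted p = 0.0648).

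Adm, at chr7:110627657-110629820, was low outside M1, with group means of 4.72 to 7.02 TPM. It measured 174.4, 177.2 and 169.7 TPM in KO M1 libraries, against 86.7, 95.9 and 91.9 TPM in control M1 libraries. It measured 4.32, 5.63 and 4.21 TPM in KO M2 libraries, against 6.05, 6.39 and 6.33 TPM in control M2 libraries. It measured 5.82, 5.80 and 9.34 TPM in KO M0 libraries, against 5.25, 7.91 and 7.91 TPM in control M0 libraries. The M1 groups stood apart, the M0 groups overlapped, and under M2 the KO libraries lay below the control libraries. KO over control was 0.92 ± 0.15 under M1 (limma adjusted p = 1.37e-04), -0.02 ± 0.15 at M0 (adjusted p = 0.964) and -0.35 ± 0.15 under M2 (adjusted p = 0.0986, or 0.0281 with those 2 groups fitted alone). At M0 the sign depended on the library left out, with values from -0.22 to 0.085. M1 raised Adm 24.9 times over M0 in KO cells and 13.0 times in control cells, the largest ratios among the 9, and the difference in log2 response was 0.94 ± 0.22 (limma adjusted p = 0.00355). M2 lowered it in KO cells by 0.46 (limma adjusted p = 0.0140), a call that ended without KO M0 library 3 (-0.26, adjusted p = 0.0712), KO M2 library 1 (-0.41, adjusted p = 0.0509) or KO M2 library 3 (-0.40, adjusted p = 0.0573). In control cells M2 gave -0.13 (adjusted p = 0.493).

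Of the 10 listed VEGF ligands and receptors, the member Vegfa among them, 7 were tested. Under M1 the KO raised 2 and lowered 3, under M2 it raised 2 and lowered 1, and at M0 it raised 1 and lowered 1. The other ligands did not follow Vegfa: Vegfb averaged 6.70 ± 0.14 TPM in KO M1 and 9.16 ± 1.0 TPM in control M1 cells (-0.40 ± 0.071, limma adjusted p = 1.10e-04), and Vegfc 1.25 ± 0.03 TPM in KO M1 and 7.32 ± 1.03 TPM in control M1 cells (-1.88 ± 0.098, limma adjusted p = 8.77e-12). Vegfb was also lower in KO M2 cells (-0.23, limma adjusted p = 0.0208). The coreceptor genes differed by condition, Nrp1 being lower in KO cells at M0 (-0.31, limma adjusted p = 0.00536) and Nrp2 higher under M2 (0.15, adjusted p = 0.0188). Under M1 Nrp2 was lower in KO libraries, at 475, 471 and 474 TPM, against 568, 563 and 561 TPM in control libraries. Flt1, which encodes VEGF receptor 1, measured 50.4, 57.7 and 61.9 TPM in KO M2 libraries, against 12.3, 10.9 and 11.5 TPM in control M2 libraries (2.20 ± 0.084, limma adjusted p = 1.83e-13), and its M2 response was larger in KO cells by 2.33 ± 0.12 (adjusted p = 1.30e-10). In all 12 other libraries Flt1 was near or below 1 TPM, the group means being 0.37 in KO M0, 0.50 in control M0, 1.03 in KO M1 and 0.46 TPM in control M1 cells. Calcrl, the core of the adrenomedullin receptor, was at 217 ± 10.8 TPM in KO M1 and 222 ± 8.0 TPM in control M1 cells (-0.03, limma adjusted p = 0.758), against 28.6 TPM in KO M0 and 33.0 TPM in control M0 cells. Under M2 it stood at 31.3 ± 4.1 TPM in KO and 26.9 ± 0.78 TPM in control cells (0.20, limma adjusted p = 0.0407). Of the 7 listed genes for adrenomedullin and its receptor parts, 4 were tested, Adm among them. Counting Adm, the KO raised 2 and lowered 0 under M1, raised 2 and lowered 1 under M2, and raised 0 and lowered 1 at M0. Adm itself was among the 2 raised under M1.

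Ndrg1, a stress-responsive gene linked to differentiation and iron and oxygen supply, had its largest KO difference under M2. It lies at chr15:66929318-66969641. It measured 812.9, 816.3 and 815.6 TPM in KO M1 libraries, against 624.4, 627.5 and 613.9 TPM in control M1 libraries. It measured 165.5, 193.0 and 190.5 TPM in KO M2 libraries, against 110.2, 115.7 and 107.7 TPM in control M2 libraries. Unstimulated, it measured 79.3, 90.4 and 102.2 TPM in KO libraries and 71.8, 77.6 and 82.3 TPM in control libraries. The M1 and M2 groups did not overlap and the M0 groups did. KO over control was 0.71 ± 0.073 under M2 (limma adjusted p = 1.27e-06), 0.39 ± 0.073 under M1 (adjusted p = 2.85e-04) and 0.22 ± 0.073 at M0 (adjusted p = 0.0411). The M0 call ended without control M0 library 1 or 2 or KO M0 library 2 or 3. With all libraries it also ended without a mean-variance trend (limma adjusted p = 0.0581) or without a filter (adjusted p = 0.0659). It ended as well with only the groups compared in the fit (limma adjusted p = 0.124). The value fell to 0.13 without KO M0 library 3 (limma adjusted p = 0.195). M2 raised Ndrg1 by 1.01 in KO and by 0.52 in control cells, a difference of 0.49 ± 0.10 (limma adjusted p = 0.00418). Under M1 it was 8.99 times as high as at M0 in KO cells and 8.06 times in control cells. That difference was not called, except without KO M0 library 3 (log2 difference 0.26, limma adjusted p = 0.0314). Among the other 3 genes of its family, Ndrg2 rose in KO M1 cells, at 339 ± 8.9 TPM against 235 ± 4.2 TPM in control M1 cells (0.53, limma adjusted p = 3.16e-10), and was lower in KO M2 cells, at 241 ± 13.4 TPM against 259 ± 7.2 TPM in control M2 cells (-0.10, adjusted p = 0.0296). At M0 it was higher in KO cells by 0.22 (limma adjusted p = 1.26e-04).

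Bnip3, a mitophagy receptor of the outer mitochondrial membrane, was the most abundant of the 9 in all 6 groups and was higher in KO than in control cells in each condition, by 0.38 to 0.44 on the log2 scale. It lies at chr7:138890836-138909506. It measured 1140, 1186 and 1134 TPM in KO M1 libraries, against 882.6, 899.7 and 869.0 TPM in control M1 libraries. It measured 532.8, 561.8 and 548.4 TPM in KO M2 libraries, against 378.9, 424.5 and 404.0 TPM in control M2 libraries. Unstimulated, it measured 243.1, 265.5 and 292.5 TPM in KO libraries and 185.6, 202.8 and 221.3 TPM in control libraries. No KO library overlapped the control libraries of its condition. The limma log2 fold changes were 0.38 ± 0.062 under M1 (adjusted p = 5.53e-05), 0.44 ± 0.062 under M2 (adjusted p = 3.05e-05) and 0.39 ± 0.062 at M0 (adjusted p = 1.65e-04). The responses to M1 were 2.11 in KO and 2.12 in control cells and to M2 1.04 in KO and 0.98 in control cells, and neither difference was called. Its paralog Bnip3l rose in KO cells under M1, under M2 and at M0 by 0.29, 0.25 and 0.22, and Pink1, a kinase of mitochondrial quality control, by 0.42, 0.25 and 0.25 (limma adjusted p between 8.86e-07 and 0.00108 over these 6 values). Of 7 listed mitophagy genes, Bnip3 among them, 6 were tested. Counting Bnip3, the KO raised 4, 4 and 3 of them under M1, M2 and at M0 while lowering 0, 1 and 1.

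Ankrd37, an ankyrin repeat gene known as a HIF target, had little range over the conditions. It lies at chr8:45996908-46000414. It measured 61.4, 60.8 and 54.4 TPM in KO M1 libraries, against 46.5, 50.6 and 46.3 TPM in control M1 libraries. It measured 51.7, 45.5 and 44.7 TPM in KO M2 libraries, against 34.1, 37.5 and 40.2 TPM in control M2 libraries. Unstimulated, it measured 39.3, 43.2 and 48.6 TPM in KO libraries and 32.0, 31.6 and 35.7 TPM in control libraries. KO libraries were higher in each condition without overlap, and apart from KO M1, which was above all others, each group overlapped the next in order of level. KO over control was 0.29, 0.34 and 0.39 under M1, M2 and at M0, each ± 0.078 (limma adjusted p = 0.00430, 0.00307 and 0.00148). M2 did not pass the test against M0 in KO cells (0.11, limma adjusted p = 0.198) or control cells (0.17, adjusted p = 0.0727), but passed in both after TMM scaling (0.20 and 0.23, adjusted p = 0.0402 and 0.0274). Ankrd37 shares 51 bases with the neighbouring gene Ufsp2, and strand handling is not given in the sources used here. Ufsp2 was lower in KO M1 cells, at 76.9 ± 1.7 TPM against 86.3 ± 2.9 TPM in control M1 cells, and did not pass the limma test of genotype at M0 (-0.08, adjusted p = 0.137) or under M2 (-0.01, adjusted p = 0.828). M2 raised Ufsp2 over M0 by 0.37 in KO and 0.30 in control cells. The part of shared reads in the Ankrd37 values was not tested. Long noncoding genes or a pseudogene also overlap Hif1a, Adm, Egln1 and Bnip3 in the annotation; these are not among the symbols analysed here, and reads shared with them could not be set apart.

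P4ha1, the catalytic subunit of the collagen prolyl hydroxylase, differed least by genotype under M1. It lies at chr10:59323197-59373304. It measured 186.2, 179.6 and 183.9 TPM in KO M1 libraries, against 176.5, 171.3 and 171.5 TPM in control M1 libraries. It measured 107.0, 108.7 and 111.8 TPM in KO M2 libraries, against 91.8, 94.5 and 96.7 TPM in control M2 libraries. Unstimulated, it measured 80.8, 81.4 and 85.9 TPM in KO libraries and 77.1, 78.4 and 78.3 TPM in control libraries. The groups did not overlap in any condition, but the M0 and M1 gaps were small. KO over control was 0.21 ± 0.032 under M2 (limma adjusted p = 5.75e-05), 0.08 ± 0.032 under M1 (adjusted p = 0.0423) and 0.08 ± 0.032 at M0 (adjusted p = 0.0732). The M1 call ended when any 1 of KO libraries 1 and 3 or control libraries 2 and 3 was left out, and the M1 value was 0.15 after TMM scaling (limma adjusted p = 5.77e-04). It also ended without a mean-variance trend (limma adjusted p = 0.0600). M1 raised P4ha1 by 1.14 in both KO and control cells. Its partner P4hb rose in KO M1 cells, 4405 ± 8.7 TPM against 3119 ± 22.5 TPM in control M1 cells (0.50, limma adjusted p = 2.95e-11). All 4 tested genes of the 7 listed collagen hydroxylases, P4ha1 among them, rose in KO M2 cells, with Plod1 by 0.29, Plod3 by 0.23 and P4hb by 0.21. Counting P4ha1, the KO raised 2 of these 4 genes under M1 and 0 at M0, and lowered 0 in each condition.

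Set side by side, the KO raised 9 of 9 members under M1, 7 of 9 under M2 and 7 of 9 at M0, and lowered 0 in any of them. Of all 11548 genes tested with limma, 16.9% were called higher in KO cells under M1, 12.7% under M2 and 8.86% at M0, while 33.4%, 18.3% and 10.3% were called lower. After TMM scaling, 24.7% were higher under M1 and 16.6% under M2, and the share of higher genes among the calls was 48.2% in place of 33.6% under M1 and 55.0% in place of 41.0% under M2. The 6 members Hif1a, Egln1, Egln3, Ndrg1, Ankrd37 and Bnip3 were called higher in KO cells in all 3 conditions, as were 2.25% of the genes tested. The median log2 fold change of the members was 0.41 under M1, 0.26 under M2 and 0.16 at M0, beside -0.06, -0.03 and 0.00459 over all genes. KO and control libraries of the members did not overlap, with KO higher, for 9 members under M1, 7 under M2 and 7 at M0, against 21.6%, 15.7% and 18.9% of all genes. The members and the gene lists were chosen with earlier results of these data known. Their counts beside the shares of all genes are therefore a description, not an independent comparison.

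The M0 count rested in part on single libraries, and the Hif1a and Ndrg1 calls also on the fit settings given above. KO M0 library 3 was the highest of its group for 8 of the 9 members, at a median of 1.10 times the group mean, and control M0 library 3 was the highest for 6, at 1.05 times. With both left out, 4 members were called at M0 in limma, Egln1, Egln3, Ankrd37 and Bnip3, and 1337 genes in place of 2217. The count was likewise 4 without control M0 library 1 or 2 or KO M0 library 3 alone.

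**Figure D2:**
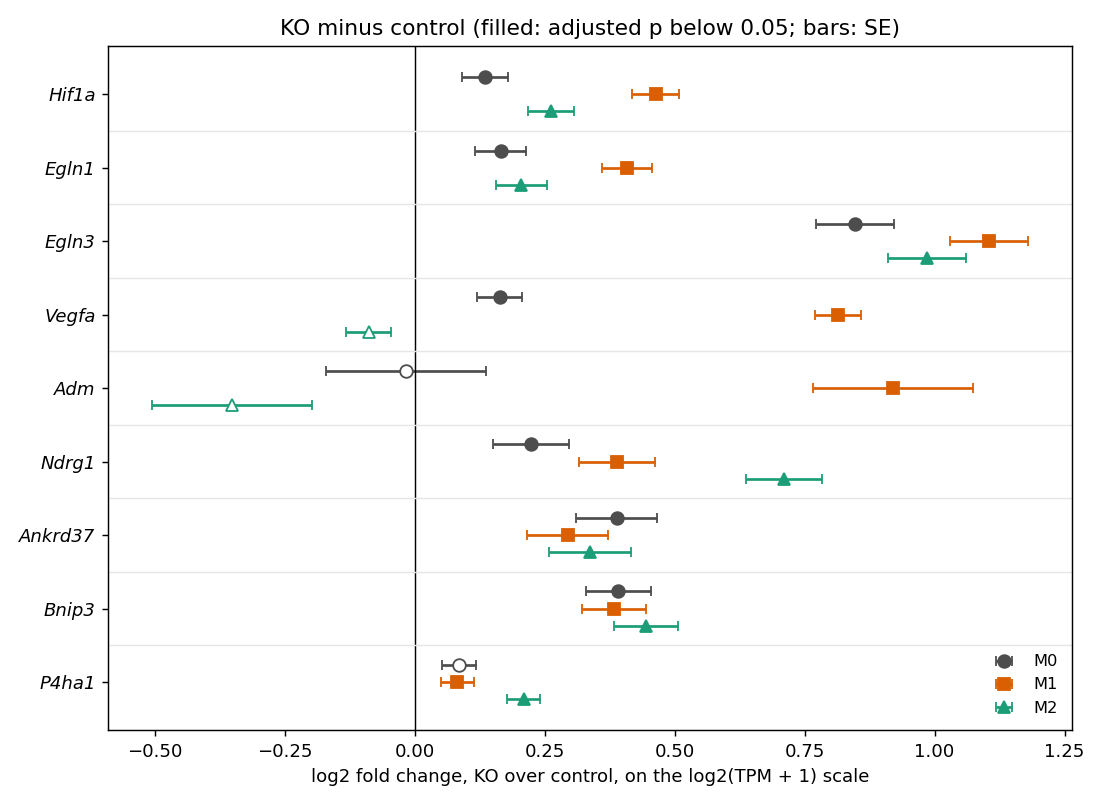
Log2 fold change of KO over control for the 9 genes (rows) at M0, M1 and M2 on the log2(TPM + 1) scale (horizontal axis); bars are standard errors and filled symbols have a limma adjusted p below 0.05. Egln3 is high in all 3 conditions (0.85 to 1.10), Adm is called only under M1 (0.92), Vegfa is at 0.81 under M1 and 0.16 at M0, and Ndrg1 most under M2 (0.71).

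M1 stimulation raised all 9 members over M0 in KO and in control cells. Of all genes, 32% were called higher in KO cells, 32.2% in control cells and 29.5% in both. The log2 fold changes of the members ran from 0.43 for Ankrd37 to 4.48 for Adm in KO cells and from 0.52 for Ankrd37 to 3.54 for Adm in control cells, with medians of 1.58 and 1.29 beside -0.43 in KO and -0.38 in control cells over all genes. TMM scaling shifted the all-gene medians to 0.08 in both genotypes and brought the share tested that was higher to 47.6% in both. Under it the M1 response of Ankrd37, for instance, became 1.03 in KO and 1.06 in control cells, so sizes depend on the scaling while the direction of the 9 members did not. Under M1 all 9 were also higher than under M2 in KO and in control cells, where 30.3% of all genes were called higher in each genotype. The smallest of these, Egln3 in control cells (0.16, limma adjusted p = 0.0465), did not pass with the replicate number as a block (adjusted p = 0.0561) or without control M1 library 1 or 2 or control M2 library 1 or 2 (adjusted p between 0.0687 and 0.153). After TMM scaling it was 0.63 (limma adjusted p = 2.91e-07), and 44.8% of all genes in KO and 44.9% in control cells were then higher under M1 than under M2.

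M2 stimulation gave a smaller and divided response. In both genotypes 6 members rose over M0 (Hif1a, Egln1, Egln3, Ndrg1, Bnip3 and P4ha1), as did 24.7% of all genes, 29.6% being called higher in KO cells and 28.4% in control cells. In KO cells Vegfa and Adm fell, 2 of 9 members, where 43.2% of all genes were called lower. Mean ratios of M2 over M0 ran from 0.676 for Adm to 2.51 for Egln3 in KO cells and from 0.891 for Adm to 2.37 for Egln3 in control cells.

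The response to M1 was larger in KO than in control cells for 4 of 9 members, Hif1a, Egln1, Vegfa and Adm, where 12.1% of all genes had a larger and 23.9% a smaller value in KO cells in limma. The other 5 were not called; for Bnip3 and P4ha1 the difference was within 0.01 of 0 and turned positive after either rescaling. The response to M2 differed for 2 of 9, with Ndrg1 higher and Vegfa lower in KO cells, while 7.06% of all genes were called higher and 7.05% lower. P4ha1 was not called (0.12, limma adjusted p = 0.0769). After TMM scaling it was called higher (0.15, limma adjusted p = 0.0226), which made 3 of 9, and 8.84% of all genes were then higher.

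**Figure D3:**
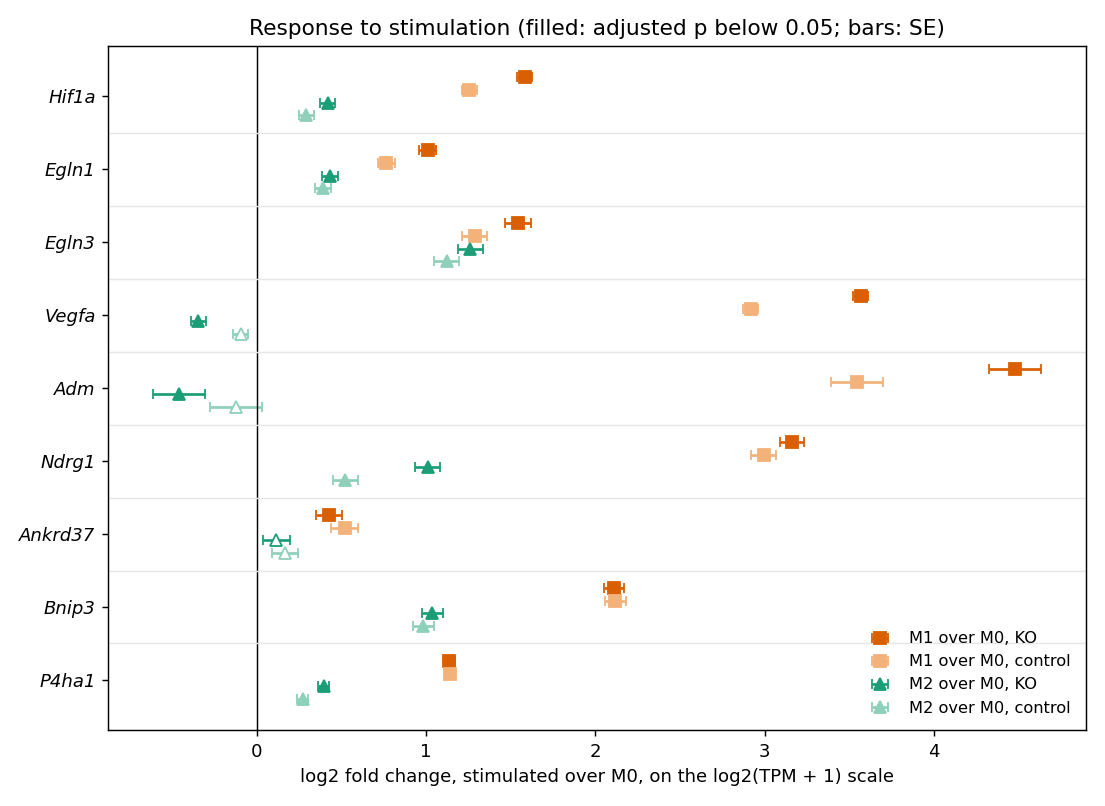
Log2 fold change of M1 or M2 over M0 for the 9 genes (rows), in KO and in control cells, on the log2(TPM + 1) scale (horizontal axis); bars are standard errors and filled symbols have a limma adjusted p below 0.05. All M1 values lie right of 0, from 0.43 to 4.48, while the M2 values of Vegfa and Adm lie left of it in both genotypes, filled only in KO cells.

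Among 28 other listed HIF targets 24 were tested, and the KO raised 17 and lowered 1 under M1, raised 13 and lowered 4 under M2, and raised 9 and lowered 2 at M0, with medians of 0.26, 0.14 and 0.12. Over all genes 16.9%, 12.7% and 8.86% were called higher under M1, under M2 and at M0, and 33.4%, 18.3% and 10.3% lower. Car12, a membrane carbonic anhydrase, averaged 13.4 ± 0.60 TPM in KO M1 and 7.95 ± 0.30 TPM in control M1 cells (0.68), and Mxi1, a MYC antagonist, 112 ± 1.3 TPM in KO M1 and 76.6 ± 2.0 TPM in control M1 cells (0.54). Ddit4, an inhibitor of mTOR signalling, went the other way under M2, at 71.7 ± 2.3 TPM in KO M2 and 109 ± 3.3 TPM in control M2 cells (-0.59, limma adjusted p = 5.64e-08). Pfkfb4, a regulator of glycolysis, was higher there, at 118 ± 3.4 TPM in KO M2 and 83.5 ± 3.3 TPM in control M2 cells (0.49). At M0 the largest called changes were in Pdk1, Fam162a and Mif, at 0.26, 0.25 and 0.24.

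**Figure D4:**
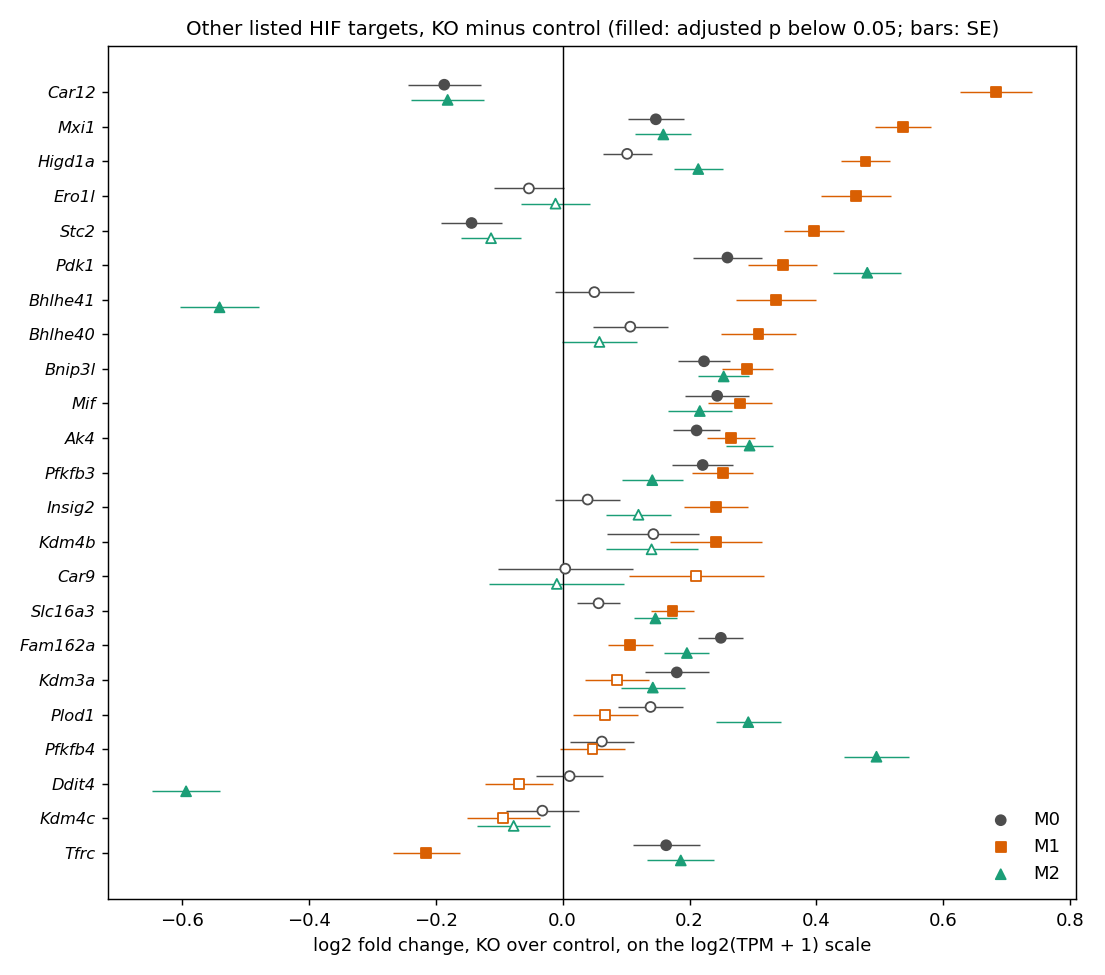
Log2 fold change of KO over control at M0, M1 and M2 for 23 tested genes of the list of other HIF targets (rows, ordered by the M1 value) on the log2(TPM + 1) scale (horizontal axis); bars are standard errors and filled symbols have a limma adjusted p below 0.05. Car12 stands at 0.68 under M1 and at -0.18 under M2, and Ddit4 at -0.59 under M2.

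Of 17 listed genes of glycolysis and glucose uptake, all tested, the KO raised 12 and lowered 0 under M1, raised 10 and lowered 1 under M2, and raised 5 and lowered 1 at M0. The glucose transporter gene Slc2a3 averaged 111 ± 2.4 TPM in KO M1 and 60.4 ± 2.2 TPM in control M1 cells (0.86, limma adjusted p = 3.56e-10), but was the gene lowered at M0, with 22.8 ± 1.8 TPM in KO M0 and 29.3 ± 1.2 TPM in control M0 cells (-0.35, adjusted p = 1.82e-04). Gapdh and Aldoc, both glycolytic enzymes, rose in KO M1 cells by 0.42 and 0.41. In KO M2 cells the transporter gene Slc2a1 rose by 0.31, the hexokinase gene Hk1 by 0.24 and Aldoc by 0.23 (limma adjusted p between 1.64e-05 and 0.00103). At M0 Hk1 rose by 0.25 and Pfkl, a phosphofructokinase gene, by 0.16 (limma adjusted p = 0.00109 and 0.00339).

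The members fell into different patterns over the 6 group means, taken as log2 values centred per gene, with the root mean square distance as the measure of unlikeness. The closest members were Hif1a and P4ha1 (0.169) and Egln1 and P4ha1 (0.171). Vegfa and Adm were 0.393 apart, and the widest pair was Adm and Ankrd37 at 1.80. Among 9691 genes the nearest to Hif1a was Higd1a (0.0685), itself one of the listed targets, then Rbms2 (0.0695). The nearest to Egln1 was Pink1 (0.0708), to P4ha1 Fhl3 (0.0388), to Ankrd37 Pbx2 (0.0694), to Ndrg1 Tiparp (0.138), to Bnip3 Dock10 (0.145), to Vegfa Rhobtb1 (0.152), to Adm Apold1 (0.190) and to Egln3 Hyal1 (0.229). These distances rest on 6 means from the same libraries and are a description only.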

How the data were processed

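The deposited values are TPM that the authors computed for each gene symbol, to 2 decimals. The submitters' processing notes name Trim Galore and mm10; aligner, quantification tool, annotation and strand handling are not stated in the sources at hand. Group and replicate number were read from each sample title, and columns were matched by library name. Whether replicates were separate cultures is not said, so the p-values cover the spread between libraries, possibly only a technical one.

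Tests used limma 3.58.1 (R 4.3.3) with a mean-variance trend and robust moderation on log2(TPM + 1), with 1 mean for each of 6 groups over all 18 libraries and 11 comparisons. This scale understates changes of low genes. Tests covered 11548 genes (minimum 1 TPM in 3 libraries) and were two-sided. Benjamini-Hochberg adjustment ran over all of them in each comparison, and calls are at an adjusted p below 0.05. The code was tested on simulated data. The members and gene lists, which come from general knowledge, were chosen with earlier results of these data known. All 9 members are named. From each list only called genes that rank 1 to 3 by size of change in a comparison, where the higher group averages at least 5 TPM, could be named with values; these are given for KO against control, and only some for the other comparisons. Epas1, Hif3a and Arnt2, all untested, and Ufsp2, which overlaps a member, are named besides. A single gene of the list of other HIF targets counts in the totals but is not reported here by name or in the figure. For likeness the nearest of the tested genes are named. Positions and promoter windows are from RefSeq, GRCm38.p6. Alternatives were other pseudocounts, filters and variance models, 2 rescalings (TMM and median ratio), a replicate block and leaving out each library.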

Additional observations from a re-analysis of the deposited data

Results flagged for a closer look

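In 6 cases the response of a member to a stimulus differed between KO and control cells in the limma test of the difference itself, on the log2(TPM + 1) scale with n = 3 libraries in each of the 4 groups involved. The M1 response was larger in KO cells for Adm by 0.94 ± 0.22 (adjusted p = 0.00355), for Vegfa by 0.65 ± 0.062 (adjusted p = 1.47e-07), for Hif1a by 0.33 ± 0.063 (adjusted p = 4.40e-04) and for Egln1 by 0.24 ± 0.069 (adjusted p = 0.00935). The M2 response was larger in KO cells for Ndrg1 by 0.49 ± 0.10 (limma adjusted p = 0.00418) and smaller for Vegfa, at -0.25 ± 0.062 (adjusted p = 0.00930). Leaving out 1 library at a time kept all 6 calls, with adjusted p from limma of at most 0.0298. With library 3 of both unstimulated groups left out, the Egln1 call for M1 ended (0.21, limma adjusted p = 0.0567). The Vegfa call for M2 ended there too (-0.20, limma adjusted p = 0.0542). No group has more than 3 libraries, so no test for a single outlying library applied.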

How the results depend on the processing

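Over the alternatives, 1472 member fold changes kept their direction and side of the threshold, 40 lost their call, 22 gained one and 23 changed sign. Members called higher in KO cells at M0 numbered 7, and 4 to 7 with 1 library left out. Members whose M2 response differed by genotype numbered 2, 2 to 4 with 1 library left out, and 3 after either rescaling. With library 3 of both unstimulated groups left out, an alternative chosen after seeing the data, 4 members and 1337 genes were called at M0 (7 and 2217 with all libraries), and 1 member and 1064 genes for the difference in M2 response (2 and 1629).

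All sign changes were in values not called. The genotype difference in M1 response became 0.056 (TMM) and 0.061 (median ratio) for Bnip3, and 0.060 (TMM), 0.065 (median ratio) and 0.021 (library 3 of both unstimulated groups left out) for P4ha1. Leaving out 1 library gave ranges of -0.073 to 0.059 for Bnip3 and -0.020 to 0.024 for P4ha1 in that comparison, -0.12 to 0.026 for Ankrd37, -0.012 to 0.12 for Bnip3 and -0.015 to 0.073 for Egln1 in the M2 response, and -0.22 to 0.085 for Adm in KO against control at M0. The cause of these moves was not tested.

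The replicate numbers were not taken to pair libraries, since no comparison had a correlation of deviations over 0.1 in every same-numbered pair. With the number as a block, 7, 9 and 7 members and 2207, 5751 and 3530 genes were called in KO against control at M0, M1 and M2. The block ended 1 member call, Egln3 in M1 against M2 in control cells (0.16, limma adjusted p = 0.0561). All 6 libraries correlated best with their own number in M1 against M0 of KO cells and in M2 against M0 of control cells, a hint from the data only. TPM keeps no depth, so what depth limits is unknown.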
